A study of Mus musculus with 27 samples.

Results

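*S100a8*, *S100a9*, *Lcn2*, *Ltf*, *Camp*, *Ngp*, *Mpo*, *Ctsg*, *Retnlg* and *Lrg1* encode S100 and granule proteins best known from neutrophils. They were found on the arrays by the gene symbol printed beside each probe. These 10 genes, of 30869 symbols on the array, were measured by 14 probes of 45281. The genes were chosen with earlier results of these data known, and which measured values they were chosen by was not recorded, so every level, count and difference below describes them and supports nothing by itself. Each gene is given by its brightest probe over the colon arrays, and its other probes are mentioned where they differ.

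Neutrophils are made in the bone marrow and lay down their granules in a fixed order as they mature. Primary granules, which hold myeloperoxidase and serine proteases such as cathepsin G, come first, and specific and tertiary granules, with lactoferrin, cathelicidin and lipocalin 2, come later. S100A8 and S100A9 pair as calprotectin, an abundant cytosolic protein of neutrophils and young monocytes that is used in the clinic as a stool marker of gut inflammation. Mbd2 is a protein that binds methylated CG dinucleotides in DNA and is linked to gene silencing.

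Transcripts were measured on single-colour Illumina MouseWG-6 BeadChips, on which the brightness of a probe stands for the amount of its transcript. Monocytes (5 WT and 5 Mbd2KO arrays), macrophages (5 and 5) and CD11b-negative dendritic cells, labelled CD11bnegDC (2 and 3), came from the colon of C57BL/6 mice given 2% dextran sulfate sodium (DSS), a detergent-like salt that injures the colon lining. Splenic CD4 T cells, 1 array of each genotype, were taken 6 weeks into colitis set off by T cell transfer, and how they were purified, or whether the genotype is that of the transferred cells, was not given in the sources used here. WT mice carried intact Mbd2, and the Mbd2KO mice (*Mbd2*-/-) lacked it in the whole body and were littermates housed with the WT mice.

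The colon cells had been sorted as CD45+ and negative for Ly6G, the usual surface marker of neutrophils, and for Siglec-F. Monocytes were CD11b+ and Ly6C+, macrophages were CD11b+, Ly6C-, MHC-II+ and F4/80+, and CD11bnegDC, the cDC1 of the study, were CD11b-, CD11c+ and CD103+. Each array was labelled a replicate made from 1 to 5 mice, and the study's methods give a wider range. Mbd2 itself was above background on 0 of 27 arrays, so the genotype labels could not be checked. The colon arrays had mean intensities of 172 to 353 and the T cell arrays of 180 to 258, and 16024 to 18608 probes per array were above background. Array columns stood in the table in sets of 6, and neither labels nor headers name a chip. Monocyte arrays were in sets 1 and 2 and macrophage arrays in sets 3 and 4. The WT CD11bnegDC arrays were in sets 1 and 2 and the Mbd2KO ones in sets 3 to 5, so column set cannot be told apart from cell type between monocytes and macrophages, nor from genotype in CD11bnegDC. WT CD11bnegDC shared sets with WT monocytes, and Mbd2KO CD11bnegDC arrays 27 and 28 with Mbd2KO macrophages. Mbd2KO CD11bnegDC array 30 shared set 5 with the T cell arrays only, so it has no other colon array in its set.

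Promoters are shown for the *S100a8* and *S100a9* pair, whose transcripts moved together array by array, and for *Lrg1*, which was called between genotypes in CD11bnegDC. Each line holds the 250 bases before the RefSeq gene start on GRCm38.p6, read 5′ to 3′ on the strand of the gene. Capitals mark the CG dinucleotides, the letters whose methylated form Mbd2 binds. *S100a8* is on the plus strand at chr3:90668821-90669070, *S100a9* on the minus strand at chr3:90695722-90695971, and *Lrg1* on the minus strand at chr17:56121947-56122196.
S100a8: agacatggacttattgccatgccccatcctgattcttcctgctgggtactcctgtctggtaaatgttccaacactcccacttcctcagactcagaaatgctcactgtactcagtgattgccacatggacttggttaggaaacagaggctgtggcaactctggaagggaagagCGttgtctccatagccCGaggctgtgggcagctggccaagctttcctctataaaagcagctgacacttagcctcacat
S100a9: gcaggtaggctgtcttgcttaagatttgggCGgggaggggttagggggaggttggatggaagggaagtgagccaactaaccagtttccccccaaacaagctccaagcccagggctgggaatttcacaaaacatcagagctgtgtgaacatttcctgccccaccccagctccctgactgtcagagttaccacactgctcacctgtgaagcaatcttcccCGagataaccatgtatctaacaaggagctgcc
Lrg1: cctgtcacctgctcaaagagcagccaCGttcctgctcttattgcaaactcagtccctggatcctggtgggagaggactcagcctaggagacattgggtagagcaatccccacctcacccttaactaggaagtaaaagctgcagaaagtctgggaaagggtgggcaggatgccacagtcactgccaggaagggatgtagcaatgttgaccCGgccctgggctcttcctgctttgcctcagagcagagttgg

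Each of these 3 windows held 2 CG dinucleotides. All 10 genes matched the RefSeq table, and their windows held 2 to 7, with a median of 2.5. Over all 32841 windows the median was 6, with quartiles at 2 and 16, and 43% held more than the CG-richest window of the 10, that of *Ctsg*. Methylation was not measured on these arrays.

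A letter pattern of the C/EBP transcription factors, which drive granule genes in the marrow, was searched on both strands as TTGCNNAA. It was found in 5 of the 10 windows (*S100a9*, *Ngp*, *Ltf*, *Lcn2* and *Retnlg*) and in 9.57% of all windows. In *S100a9* it began 236 bases before the start and in *Ltf* 75 bases before it, and *Ngp* held it at 138 and at 11 bases. GAGGAA, the core letters of sites for the myeloid factor PU.1, was in 5 of 10 (*S100a8*, *Ltf*, *Lcn2*, *Mpo* and *Ctsg*) and in 23.3% of all. TATAAA was in 2 of 10 (*S100a8* and *Ctsg*) and in 12.4% of all, and the PU.1 and TATA letters were likewise searched on both strands. A match describes letters, and a window without a match says only that these letters are not in it.

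The 10 genes fell into 2 sets by detection alone. *S100a8*, *S100a9*, *Lcn2*, *Ltf*, *Retnlg* and *Lrg1* were above background on 25 of 25 colon arrays. *Mpo* was above background on 14, *Camp* on 6, *Ngp* on 4 and *Ctsg* on 3. In bulk samples such as these, a lower level may stand for fewer cells that hold the transcript or for less transcript per cell, which cannot be told apart. Levels below are log2 intensities after background correction and quantile normalization over the 25 colon arrays, where a difference of 1 is a doubling, and they are not compared between probes.

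**Figure D1:**
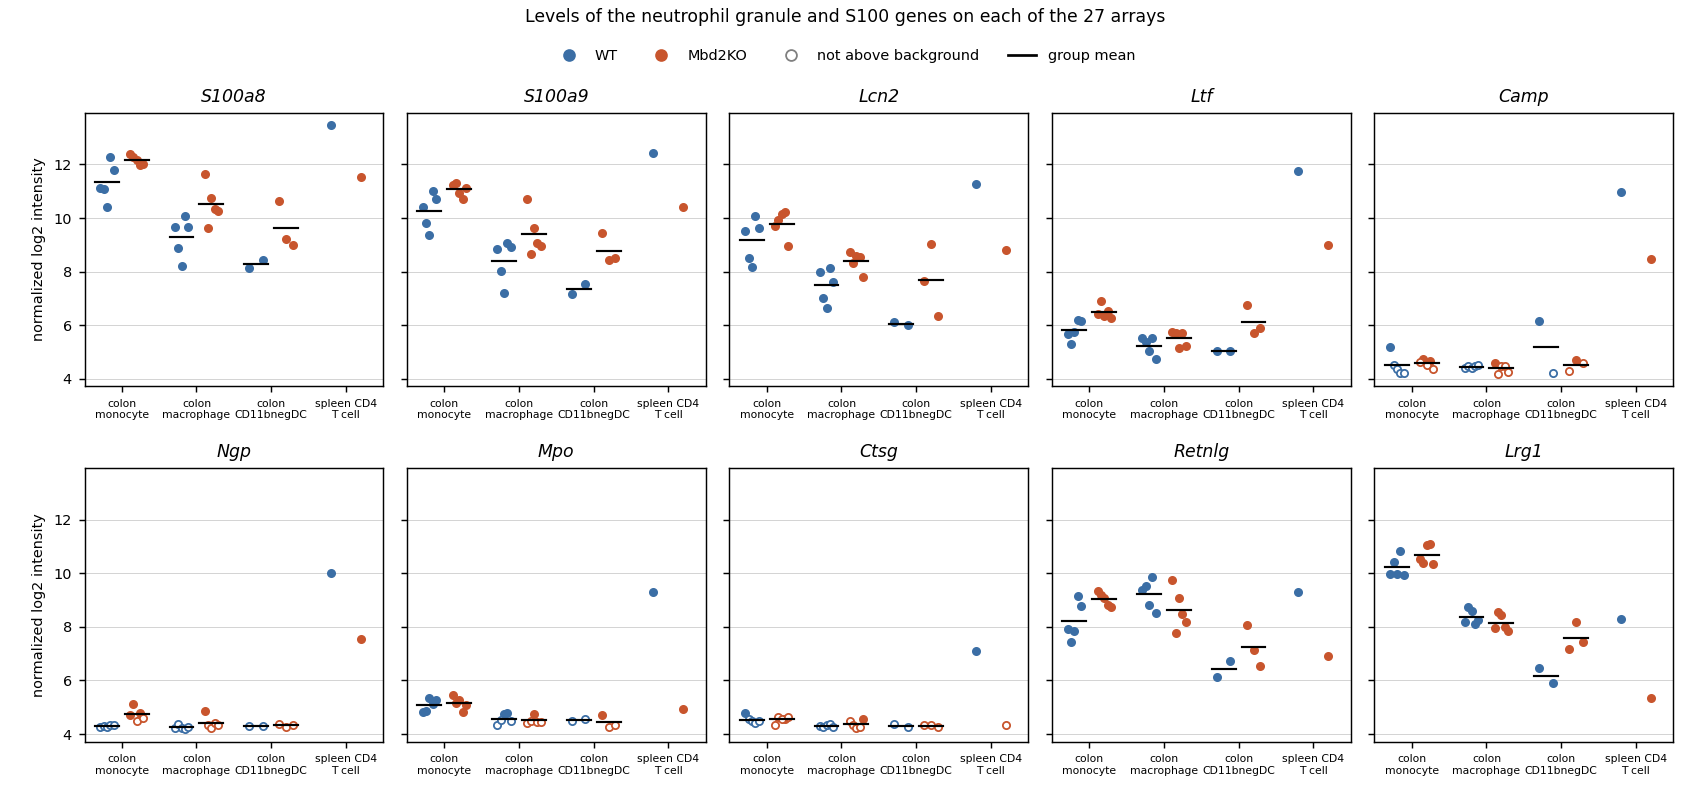
Normalized log2 intensity (vertical axis) of the brightest probe of each gene on every array, by cell type and genotype, with open circles for probes not above background. *S100a8*, *S100a9* and *Lcn2* step down from monocytes to CD11bnegDC, and all 10 genes are higher on the WT than on the Mbd2KO splenic CD4 T cell array.

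*S100a8* encodes the smaller calprotectin chain. In monocytes it stood at 11.18, 11.14, 10.45, 12.34 and 11.85 on the WT arrays 1 to 5 and at 12.43, 12.34, 12.22, 12.01 and 12.07 on the Mbd2KO arrays 6 to 10. In macrophages it stood at 9.72, 8.89, 8.21, 10.12 and 9.71 on the WT arrays 11 to 15 and at 11.71, 9.66, 10.81, 10.37 and 10.32 on the Mbd2KO arrays 16 to 20. In CD11bnegDC it stood at 8.15 and 8.47 on the WT arrays 23 and 26 and at 10.70, 9.24 and 9.04 on the Mbd2KO arrays 27, 28 and 30. Each monocyte array but WT array 3 was above 11, whereas of the macrophage arrays only Mbd2KO array 16 was. The WT arrays of monocytes and macrophages spread wider than the Mbd2KO monocytes, with SD 0.73, 0.77 and 0.18.

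*S100a9* encodes its partner. Mean levels were 10.30 ± 0.67 (SD, n = 5) in WT and 11.11 ± 0.24 (n = 5) in Mbd2KO monocytes. They were 8.43 ± 0.80 (n = 5) and 9.43 ± 0.82 (n = 5) in macrophages and 7.38 ± 0.26 (n = 2) and 8.81 ± 0.57 (n = 3) in CD11bnegDC. The extreme arrays were those of *S100a8*. WT array 3, at 9.40, was the lowest monocyte array, WT array 13, at 7.19, the lowest macrophage array, and Mbd2KO array 16, at 10.74, the highest macrophage array.

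After the mean of each group of arrays was taken away, *S100a8* and *S100a9* correlated over the 25 colon arrays with Pearson r = 0.96 and Spearman rho = 0.96, and with r = 0.94 without the 2 arrays where *S100a8* lay farthest from its group. Of all probes above background on at least 5 colon arrays, that of *S100a9* was the most like *S100a8*. The points share RNA, array and normalization, so r describes these arrays. *Retnlg* (r = 0.80) and *Hdc*, the histamine-forming enzyme (0.77), came next. *S100a8* followed *Lcn2* with r = 0.54 and *Ltf* with r = 0.48, and with *Lrg1* r was -0.26. *Ltf* was most like *Taf12* (0.82), *Mpo* like *Btg1* (0.77), and *Camp* like *Adamts19* (0.84), while 2 other probes at 0.82 for *Camp* fell to 0.24 and 0.26 without its 2 farthest arrays.

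**Figure D2:**
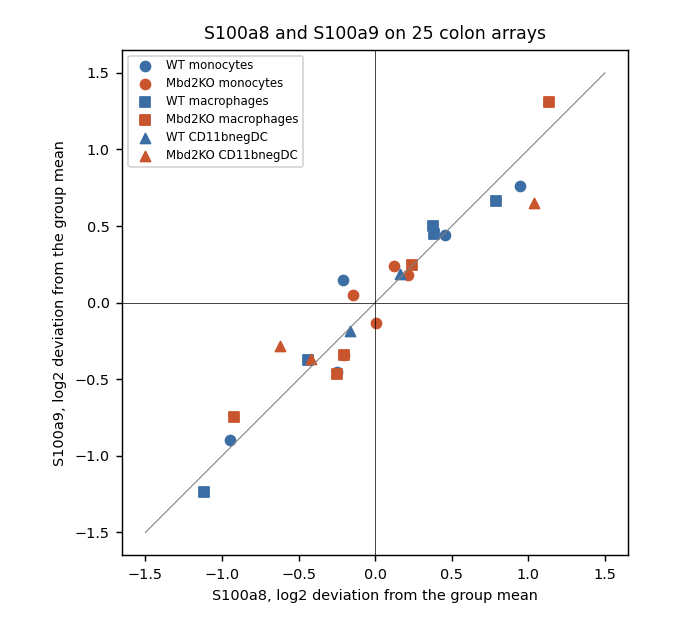
*S100a9* against *S100a8*, each as the log2 deviation of an array from the mean of its group, over 25 colon arrays. The points lie close to 1 line, within 1.31 of 0 on both axes, with r = 0.96.

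*Lcn2* encodes lipocalin 2, which binds iron-carrying bacterial siderophores and is also made by stressed epithelium. WT monocytes stood at 9.54, 8.51, 8.20, 10.12 and 9.68 and Mbd2KO monocytes at 9.74, 9.98, 10.20, 10.25 and 8.98. WT macrophages stood at 8.01, 7.04, 6.64, 8.16 and 7.63 and Mbd2KO macrophages at 8.77, 8.33, 8.60, 8.57 and 7.83. CD11bnegDC stood at 6.14 and 5.99 in WT and at 7.66, 9.07 and 6.34 in Mbd2KO. The genotypes overlapped in monocytes and macrophages and did not in CD11bnegDC. The probes most like *Lcn2* array by array were those of *Mrgpra2* (r = 0.85), *Slpi*, a protease inhibitor (0.76), and *Lck* (0.76).

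*Ltf* encodes lactoferrin, the iron-binding protein of specific granules. It lay near the low end of the scale in the colon, at 5.31 to 6.18 in WT and 6.26 to 6.91 in Mbd2KO monocytes, without overlap. In macrophages it spanned 4.74 to 5.54 in WT and 5.14 to 5.74 in Mbd2KO, with overlap. CD11bnegDC stood at 5.04 and 5.05 in WT and at 6.77, 5.69 and 5.89 in Mbd2KO. A second, dimmer *Ltf* probe was above background on 1 of the 25 colon arrays.

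*Camp*, the cathelicidin precursor, and *Ngp*, neutrophilic granule protein, are among the markers of neutrophil precursors in the marrow. *Camp* was above background on arrays 1, 7, 9, 16, 23 and 28, and its highest colon level was 6.17, on WT CD11bnegDC array 23, against 4.23 on the other WT array. *Ngp* was above background on 3 of 5 Mbd2KO monocyte arrays (6, 7 and 9) and on Mbd2KO macrophage array 16, and on none of the 12 WT colon arrays. Its highest colon level, 5.11 on array 7, compared with a mean of 4.31 ± 0.04 (n = 5) in WT monocytes. Arrays 7, 9 and 16 were thus above background for both genes. Array 16 carried the highest *S100a8* and *S100a9* of the macrophages, and array 9 the lowest of both among the Mbd2KO monocytes.

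*Mpo* encodes myeloperoxidase, which makes hypochlorous acid, and *Ctsg* cathepsin G. *Mpo* was above background on all 10 monocyte arrays, at 4.82 to 5.45, on 3 of 10 macrophage arrays (13, 14 and 18) and on 1 of 5 CD11bnegDC arrays (27). Monocyte means were 5.09 ± 0.24 in WT and 5.16 ± 0.23 in Mbd2KO (n = 5 each). *Ctsg* was above background on arrays 1, 9 and 20, and its colon levels lay within 4.23 to 4.78. At this signal over background a difference in *Ctsg* was not detectable.

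*Retnlg* encodes a secreted resistin-like protein. It was the exception to the fall from monocytes to macrophages in WT cells: WT monocytes stood at 7.94, 7.44, 7.86, 9.19 and 8.81 and WT macrophages at 9.43, 9.56, 8.85, 9.89 and 8.55. In Mbd2KO, monocytes stood at 9.39, 9.22, 9.10, 8.86 and 8.78 and macrophages at 9.78, 7.78, 9.10, 8.49 and 8.19. CD11bnegDC had the lowest mean in both genotypes, with arrays at 6.12 and 6.72 in WT and 8.10, 7.15 and 6.54 in Mbd2KO, with overlap.

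*Lrg1* encodes a secreted leucine-rich glycoprotein held in neutrophil granules and raised in inflamed gut. WT monocytes stood at 10.02, 10.49, 10.02, 10.90 and 9.97 and Mbd2KO monocytes at 10.59, 10.41, 11.12, 11.15 and 10.40. WT macrophages stood at 8.19, 8.75, 8.61, 8.13 and 8.29 and Mbd2KO macrophages at 7.98, 8.59, 8.48, 8.02 and 7.85. CD11bnegDC stood at 6.46 and 5.91 in WT and at 7.18, 8.20 and 7.45 in Mbd2KO. Monocytes and macrophages did not overlap, macrophages overlapped the top Mbd2KO CD11bnegDC array, and the genotypes were apart in CD11bnegDC only. The probes most like *Lrg1* array by array were those of *Rusc2* (r = 0.81), *Yap1* (0.80) and *Lims2* (0.78), none of them another of the 10 genes.

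Whether the loss of Mbd2 alters these transcripts within a cell type was compared with limma over all probes above background. Calling a gene took a probe with a log2 fold change of at least 1 in size and a p under 0.05 after Benjamini-Hochberg adjustment. In monocytes, 0 of the 7 genes tested were called, where 0.5% of the 11992 genes tested were, and 0 passed the adjusted p alone, where 2.2% of genes did. An unadjusted p under 0.05 was given by limma for 4 of them (*S100a8*, *S100a9*, *Ltf* and *Retnlg*) and for 16.4% of all genes. *S100a8* was 0.82 higher in Mbd2KO (standard error 0.39, 95% interval 0.01 to 1.64, adjusted p 0.355). *S100a9* differed by 0.82 (adjusted p 0.338), *Retnlg* by 0.82 (0.311), *Lcn2* by 0.62 (0.555), *Lrg1* by 0.46 (0.370) and *Mpo* by 0.08 (0.860).

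*Ltf* was the 1 gene of the 7 whose genotypes did not overlap in monocytes, as did not 6.08% of all genes. It was 0.69 higher in Mbd2KO (standard error 0.21, adjusted p 0.0967). The median difference of the 7 genes was 0.69 and all 7 were above 0, where the median of all probes was -0.02 and 46.1% were above 0. By column set, set 1 first, the differences were 1.12 and 0.24 for *S100a8*, 1.07 and 0.31 for *S100a9*, and 0.83 and 0.40 for *Ltf*. WT monocytes averaged 10.92 for *S100a8* in set 1 and 12.09 in set 2.

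In macrophages, 0 of 6 genes tested were called, where 1.83% of 12515 genes were. An unadjusted p under 0.05 was given by limma for 3 (*S100a8*, *S100a9* and *Lcn2*) and for 27.8% of all genes. *S100a8* was 1.25 higher in Mbd2KO (standard error 0.39, 95% interval 0.43 to 2.06, unadjusted p 0.00438 and adjusted p 0.0604 by limma). It was called without WT array 15 (adjusted p 0.0488) or without Mbd2KO array 17 (0.0315). Within column sets 3 and 4 the difference was 1.41 and 0.81. *S100a9* was 1.00 higher (adjusted p 0.114), *Lcn2* 0.93 (0.181) and *Ltf* 0.27 (0.454). *Retnlg* and *Lrg1* had the opposite sign, at -0.59 (0.341) and -0.21 (0.606). The median of the 6 was 0.60, against -0.07 over all probes.

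In CD11bnegDC, 2 of 8 genes tested were called, both higher in Mbd2KO, where 0.958% of 13051 genes were called higher and 2.34% in either direction. *Lrg1* was 1.42 higher (standard error 0.32, 95% interval 0.75 to 2.09, adjusted p 0.0129) and *Ltf* 1.07 higher (standard error 0.30, 95% interval 0.45 to 1.69, adjusted p 0.0352). *Lcn2* (1.63, adjusted p 0.101), *S100a9* (1.43, 0.112) and *S100a8* (1.35, 0.146) had differences as large with wider spread, and *Retnlg* differed by 0.84 (0.346) and *Camp* by -0.67 (0.223). *Camp* rested on array 23, without which its difference was 0.30, and *Mpo*, tested here by its second probe, differed by 0.27 (0.241). The median was 1.35, against 0.03 over all probes. With 2 arrays against 3, 37.1% of all genes did not overlap.

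Both calls in CD11bnegDC were made after quantile normalization and with cyclic loess (1.26 for *Lrg1*, adjusted p 0.0339, and 1.03 for *Ltf*, 0.0494), and not with arrays scaled to 1 median (0.72, adjusted p 0.279, and 0.60, 0.301). Median scaling moved the median of all probes to -0.37, and relative to it the differences were 1.08 and 0.96. Before normalization, *Lrg1* intensities were 194 and 141 in WT and 182, 199 and 157 in Mbd2KO, and those of *Ltf* were 118 and 110 against 156, 96 and 101, so the genotypes overlapped. The Mbd2KO arrays were dimmer as a whole, with mean intensities of 172 to 228, against 265 and 292. Without array 26 or 28, *Lrg1* was no longer called (1.15, adjusted p 0.0737, and 1.14, 0.0523), and *Ltf* was not called without array 23, 26, 27 or 30, where it ranged down to 0.75.

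**Figure D3:**
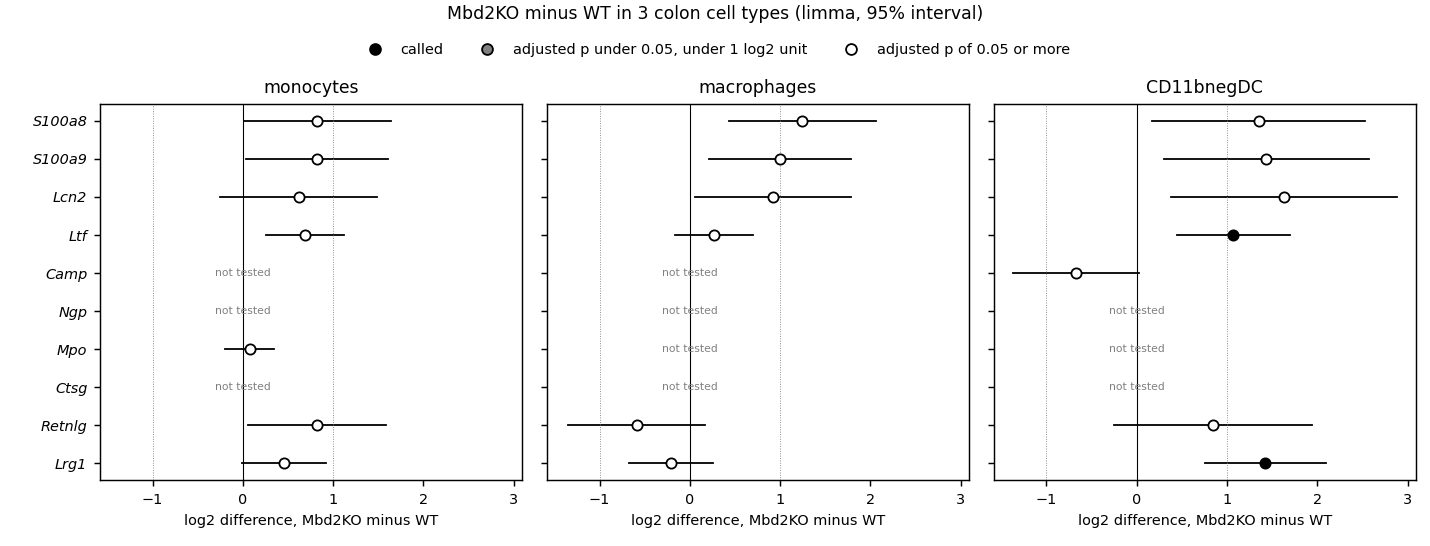
Log2 difference of Mbd2KO minus WT (horizontal axis) for each gene tested in monocytes, macrophages and CD11bnegDC, with 95% intervals. Black points were called, and white points had an adjusted p of 0.05 or more, so that only *Lrg1* and *Ltf* in CD11bnegDC are black.

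The genotype difference itself was then compared between cell types by the interaction term of the same fit. Between CD11bnegDC and macrophages 1 of 8 genes tested passed, a share near the 10.9% of 13903 genes that did. It was *Lrg1*, with a difference 1.63 higher in CD11bnegDC (standard error 0.39, 95% interval 0.82 to 2.45, adjusted p 0.0177). It did not pass with median scaling (0.98, adjusted p 0.291), without array 26 (1.36, 0.0562) or without array 28 (1.35, 0.0502). Between macrophages and monocytes 0 passed, where 0.039% of genes did, and the lowest unadjusted p was that of *Retnlg* (-1.41, p 0.0124, adjusted p 0.595 by limma). Between CD11bnegDC and monocytes 0 passed, where 1.46% did, and *Lrg1* stood at 0.97 (adjusted p 0.197).

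Which sorted population carried most of these transcripts was compared with the genotypes averaged. In macrophages against monocytes, 4 of 7 genes tested were called, all lower, where 2.55% of 12136 genes were called lower. *Lrg1* was 2.22 lower (log2 fold change -2.22, adjusted p 1.33e-10), *S100a8* stood at -1.85 (1.18e-05), *S100a9* at -1.77 (1.32e-05) and *Lcn2* at -1.56 (0.000182). *Ltf* (-0.78, adjusted p 0.000182) and *Mpo* (-0.58, 2.4e-05) were lower by the adjusted p alone, on which 19.1% of genes were lower. *Lrg1* and *Mpo* were the ones without overlap between the 10 monocyte and 10 macrophage arrays, as were 8.95% of genes. *Retnlg* differed by 0.30 (adjusted p 0.387), at 1.01 in WT alone (0.0493) and -0.40 in Mbd2KO alone (0.467).

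In CD11bnegDC against monocytes, 5 of 8 genes were called, all lower, where 9.47% of 12897 genes were. *Lrg1* stood at -3.61 (adjusted p 2.35e-13), *S100a8* at -2.82, *Lcn2* at -2.64, *S100a9* at -2.61 and *Retnlg* at -1.81. *Mpo* (-0.64) and *Ltf* (-0.57, adjusted p 0.011) were lower by the adjusted p alone, on which 28.1% of genes were, and *Camp* was not (0.32, 0.192). In CD11bnegDC against macrophages, 3 of 7 were called, all lower, where 9.2% of 13267 genes were. They were *Retnlg* (-2.12, adjusted p 6.82e-06), *Lrg1* (-1.39, 2.49e-06) and *Lcn2* (-1.08, 0.0161). *S100a8* (-0.97, 0.0216) and *S100a9* (-0.84, 0.0391) were lower by the adjusted p alone, on which 28.6% of genes were, and *Ltf* (0.21, 0.358) and *Mpo* by its second probe (-0.06, 0.557) were not.

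*S100a8*, *S100a9*, *Lcn2* and *Lrg1* had 1 order, monocytes over macrophages over CD11bnegDC, with each step past the adjusted p where the genotypes were averaged. Within a genotype the step from macrophages to CD11bnegDC passed in WT for *Lrg1* (-2.21, adjusted p 2.49e-06) and *Lcn2* (-1.43, 0.0419). It did not pass in Mbd2KO for *Lrg1* (-0.57, 0.0758) or *Lcn2* (-0.73, 0.230). For *S100a8* (-1.02 in WT, 0.125, and -0.92 in Mbd2KO, 0.106) and *S100a9* (-1.05, 0.101, and -0.62, 0.268) it passed in neither, and with cyclic loess the averaged *S100a9* step had an adjusted p of 0.0556.

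Within a column set, each WT CD11bnegDC array was below each WT monocyte array for these 4 genes. Set against the monocyte mean of their set, arrays 23 and 26 differed by -2.78 and -3.63 for *S100a8* and by -3.72 and -4.52 for *Lrg1*. Set against the Mbd2KO macrophages of its set, Mbd2KO CD11bnegDC array 27 differed by 0.35 for *S100a8*, 0.44 for *S100a9*, -0.54 for *Lcn2* and -0.76 for *Lrg1*. Array 28 differed by -1.49, -1.26, 0.51 and -0.15, so the step to macrophages had both signs within sets for *S100a8*, *S100a9* and *Lcn2*.

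*Mpo* was highest in monocytes by the same fit, and its second probe above background gave the same sign and the same result of the test against macrophages (-0.34, adjusted p 0.000452) and CD11bnegDC (-0.40). For *Ltf*, macrophages and CD11bnegDC did not differ beyond their spread, and for *Retnlg* monocytes and macrophages did not.

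**Figure D4:**
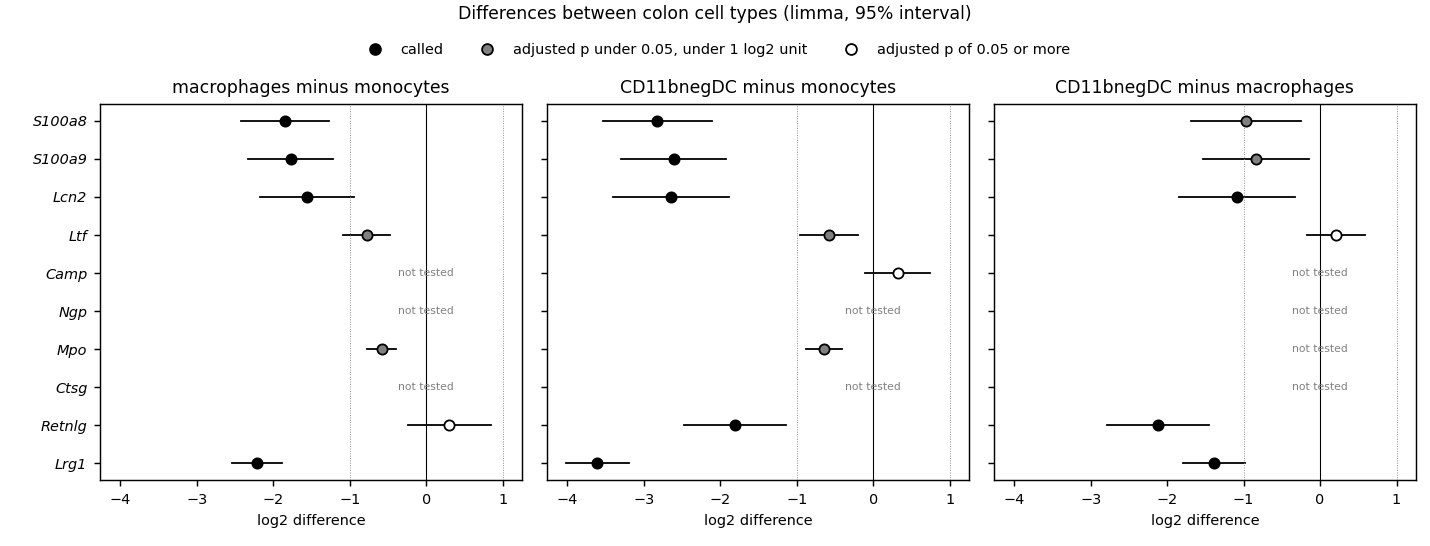
Log2 difference between cell types (horizontal axis) for each gene tested, genotypes averaged, with 95% intervals. Black points were called, grey points passed the adjusted p only and white points did not, and the black points all lie below 0.

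Other genes of neutrophils, from lists of granule proteins, mature neutrophil genes and granule transcription factors (65 on the array), were read in the same fits. Between genotypes in monocytes, 3 of 51 tested were called, all higher in Mbd2KO, where 0.359% of genes were. They were *Wfdc21* (1.60, adjusted p 0.0014), *Asprv1* (1.52, 0.00727) and *Cd177*, a surface protein of neutrophils, by its dimmer probe (1.21, 0.0284) and not by its brighter one (0.56, 0.431). In macrophages 1 of 44 was called higher, a share near the 1.67% of all genes, and it was *Fpr1*, a receptor of bacterial formyl peptides (1.08, 0.0119). In CD11bnegDC 3 of 42 were called, all higher, where 0.958% of genes were, and they were *Hk3* (1.58, 0.0068), *Hp*, haptoglobin (1.30, 0.0243), and *Fpr2* (1.28, 0.0278).

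*Cebpe* encodes C/EBP epsilon, the factor that late neutrophil precursors need for specific granules. In monocytes it was 0.64 higher in Mbd2KO (standard error 0.15, adjusted p 0.0271), with WT at 4.89 to 5.25 and Mbd2KO at 5.50 to 5.84, without overlap. In macrophages it was 0.68 lower (log2 fold change -0.68, adjusted p 0.013), with WT at 5.05 to 5.93 and Mbd2KO at 4.46 to 5.25, with overlap. The difference between these was -1.32 (standard error 0.21, adjusted p 0.0200), where 0.039% of genes passed. It did not pass with median scaling (-1.11, adjusted p 0.385), nor without background correction, with cyclic loess or with the arrays of these cell types alone. All these values are of the brightest *Cebpe* probe, and another *Cebpe* probe passed between genotypes in no cell type. The lowest macrophage level, on Mbd2KO array 20, was not above background.

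Between cell types, 18 of 49 other neutrophil genes were called lower and 1, *Mmp9*, higher in macrophages than in monocytes, where 2.55% of all genes were lower. *Chil3*, a chitinase-like protein (-5.35), *Hp* (-3.45) and *Cd177* (-3.10) fell most among those named. In CD11bnegDC 27 of 53 were lower than in monocytes, where 9.47% of genes were, *Chil3* by -6.48, *Hp* by -6.12 and *Fpr2* by -5.69, and 2 (*Cd24a* and *Cnn2*) were higher. Against macrophages 21 of 47 were lower in CD11bnegDC, where 9.2% of genes were, and 5 higher. *Csf3r*, the receptor of G-CSF, which neutrophils and monocytes share, had mean levels of 9.86 and 9.71 in WT and Mbd2KO monocytes, 9.05 and 8.96 in macrophages and 4.77 and 5.57 in CD11bnegDC.

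*Cxcr2*, the chemokine receptor of neutrophils, was above background on 5 of 5 WT and 4 of 5 Mbd2KO monocyte arrays, 1 of 5 WT and 3 of 5 Mbd2KO macrophage arrays and 0 of 5 CD11bnegDC arrays. Of 10 neutrophil-defining genes, *Ly6g* was not found on the array. The summed linear level of the other 9 was 4921 to 6151 in WT and 5530 to 6680 in Mbd2KO monocytes. It was 4200 to 4911 and 3964 to 4877 in macrophages and 3465 to 4242 and 3182 to 4191 in CD11bnegDC, with 3 to 8 of the 9 above background per array. Of 8 tested, 7 were lower by the adjusted p in CD11bnegDC than in monocytes, where 28.1% of genes were. The sum does not tell which gene carries it. The sum of 17 epithelial genes was 11790 to 21435 in WT and 15023 to 28084 in Mbd2KO monocytes, 10074 to 27106 and 13994 to 31903 in macrophages, and 7976 to 23965 and 11518 to 21831 in CD11bnegDC. These ranges overlapped between genotypes in each cell type, but single marker genes moved with genotype. In CD11bnegDC the sum of monocyte genes was 6587 to 6857 in WT and 7741 to 9796 in Mbd2KO. That of macrophage genes was 2608 to 2733 and 3003 to 5825, and neither overlapped. Sums of other specific and tertiary granule genes (6511 to 7582, 9051 to 10184.5) were apart too. Other primary granule genes were lower in Mbd2KO (6086 to 6446, 5304 to 5869). Sums of T cell and cDC1 genes overlapped, and with 2 arrays against 3, 37.1% of all single genes did not.

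Of 15 epithelial genes tested, 2 were called higher in Mbd2KO monocytes and 2 in Mbd2KO macrophages, where 0.359% and 1.67% of all genes were. They were the antimicrobial lectins *Reg3b* (1.38 and 1.28, adjusted p 0.00854 and 0.0119) and *Reg3g* (1.58 and 1.66, 0.0176 and 0.01). These *Reg3b* values are of 1 probe, and another *Reg3b* probe passed the adjusted p in neither cell type. In CD11bnegDC 1 was called higher, where 0.958% of genes were, and it was *Reg3b* (2.25, 0.0105, by 1 probe and 1.38, 0.0400, by another). The median difference of the 15 was 0.22 in monocytes, 0.35 in macrophages and 0.33 in CD11bnegDC, with 11, 13 and 10 of them above 0. Of 8 neutrophil-defining genes tested in monocytes, 3 passed the adjusted p, all higher in Mbd2KO, where 1.02% of all genes passed higher. They were *Cd177*, which was also called, *Cebpe* and *Cxcr1* (0.94, 0.00268). In macrophages 1 of 5 passed, *Cebpe*, lower in Mbd2KO, where 3.2% of genes passed lower. In CD11bnegDC 0 of the 4 tested passed, where 8.27% of genes passed in either direction. There 3 of the 4 were above 0, with a median of 0.77, where 52.7% of all probes were above 0. The part of such cells in the levels of the 10 genes was not tested.

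Of the receptors and partners, *Tlr4*, a receptor that S100A8 and S100A9 can engage, did not pass between genotypes (-0.14 in monocytes, -0.27 in macrophages and -0.15 in CD11bnegDC) and was lower in CD11bnegDC than in monocytes (-2.38) or macrophages (-2.47). *Ager*, the other receptor, passed in no comparison. *Slc22a17*, a receptor of lipocalin 2, was above background on 3 of 25 colon arrays and was not tested. A list of 14 other genes with S100 names was on the array, among them *S100pbp*, which encodes a binding protein and no S100 protein. Of the list 9 genes were tested, and 0 were called between genotypes in monocytes or CD11bnegDC, while *S100a4* was called lower in Mbd2KO macrophages (-1.12, adjusted p 0.0154). The brightest of them, *S100a11*, *S100a6*, *S100a10* and *S100a13*, were called in no genotype comparison, and *S100a11* passed the adjusted p alone in macrophages (-0.34, 0.0206).

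The splenic CD4 T cell arrays held the highest levels of *S100a8*, *S100a9*, *Lcn2*, *Ltf*, *Camp*, *Ngp*, *Mpo* and *Ctsg* in the series, on the WT array. Each genotype had 1 array, so the values have no replicate check and no test, and they compare 2 samples and not the genotypes. Intensities as deposited, WT first, were 13056 and 1561 for *S100a8*, 5197 and 767 for *S100a9*, 2220 and 337 for *Lcn2* and 3104 and 367 for *Ltf*. They were 1858 and 289 for *Camp*, 1027 and 193 for *Ngp*, 683 and 91 for *Mpo*, 226 and 81 for *Ctsg*, 678 and 156 for *Retnlg* and 397 and 100 for *Lrg1*. Each gene was brighter on the WT array, and on the Mbd2KO array *Ctsg* was not above background.

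After normalization over all 27 arrays, the log2 difference of WT minus Mbd2KO was 4.37 for *Mpo*, a 20.7-fold difference and the highest of 19937 probes above background on either array. The other 3 *Mpo* probes gave 2.98 (7.87-fold), 0.80 (1.74-fold) and at least 2.23-fold, and the second *Ltf* probe 1.64 (3.12-fold). It was 2.93 for *Lrg1* (rank 6), 2.77 for *Ltf*, 2.51 for *Camp*, 2.48 for *Ngp*, 2.45 for *Lcn2*, 2.36 for *Retnlg*, 2.01 for *S100a9* and 1.95 for *S100a8*. *Ctsg* was at least 5.85-fold higher, a lower bound set by the dimmest probes above background. In all, 13 of the 14 probes of these genes were at least 1 higher, where 1.44% of the 19937 probes were, and by gene 1.8%. The exception was the *Mpo* probe at 0.80. The median over all probes was 0.02.

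Set against the WT colon monocytes on the same scale, the WT T cell array was 61.9-fold higher for *Ltf* and 18.7-fold for *Mpo*, both above background on all 5 monocyte arrays. It was at least 75.7-fold higher for *Camp* and at least 42.4-fold for *Ngp*, above background on 1 and 0 of the 5, with the other arrays set to the dimmest probes above background where the gene lay lower. It was 4.35-fold higher for *S100a8*, 4.53-fold for *S100a9* and 4.22-fold for *Lcn2*. *Lrg1* went the other way, 1.94 lower on the log2 scale (-1.94). The Mbd2KO T cell array too had *Camp* (8.46), *Ngp* (7.53) and *Ltf* (8.98) above each colon array.

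**Figure D5:**
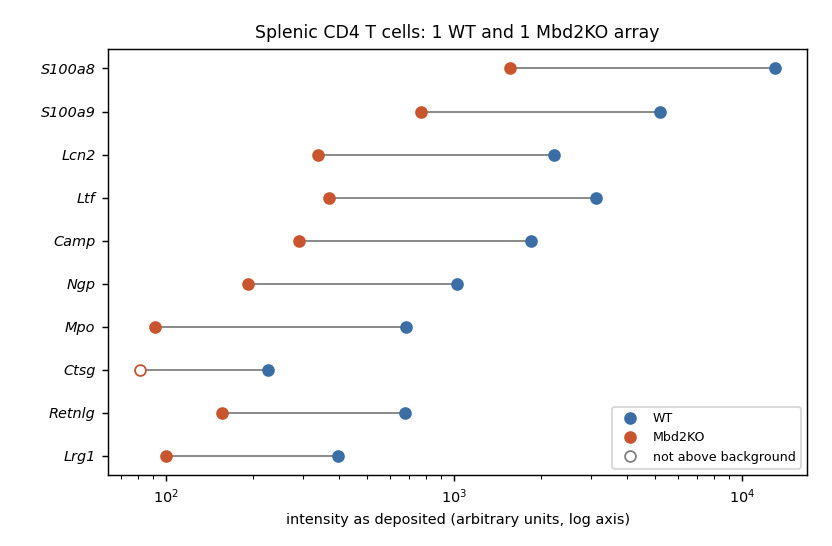
Intensity as deposited (log axis) of each of the 10 genes on the WT and the Mbd2KO splenic CD4 T cell array, 1 array each. All 10 genes are brighter on the WT array, from 226 against 81 for *Ctsg* to 13056 against 1561 for *S100a8*.

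T cell markers summed to 28582 and 27589 on these arrays, against at most 2881 on a colon array, and 8 of 8 were above background on both. Neutrophil-defining genes summed to 878 on the WT and 524 on the Mbd2KO array, with 8 and 5 of the 9 above background. The brightest of them on both was *Il1r2*, at log2 levels of 7.90 and 8.03. Other granule genes were higher on the WT array, among them *Elane* and *Prtn3*, the serine proteases of primary granules (2.25 and 2.58), *Chil3* (2.72), *Cd177* (2.43) and *Mmp9* (1.57). *Csf3r* differed by 0.10. Over all genes, 1.8% were at least 1 higher on the WT array. Of the lists read on these arrays, 12 of 29 mature neutrophil genes, 7 of 19 specific and tertiary granule genes and 3 of 9 primary granule genes were at least 1 higher there. So were 3 of 9 neutrophil-defining genes and 1 of 8 granule transcription factors, against 2 of 9 monocyte genes, 1 of 8 T cell genes and 0 of 14 genes of the S100 list and 17 epithelial genes. The 2 monocyte genes, *Chil3* and *Hp*, are also on the specific and tertiary granule list, so these counts share genes. At least 1 lower were 1 mature neutrophil gene, *Adam8* (-1.34), and 1 primary granule gene, *Cst7*, a cystatin (-1.26). Macrophage genes went the other way, with 4 of 11 at least 1 lower, *C1qa* by -2.12, where 2.23% of the 19937 probes were at least 1 lower. The part of other cells in these samples was not tested.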

How the data were processed

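RNA of 27 samples was amplified, labelled and read on 1 array each. The authors deposited a table of unnormalized probe intensities, with the standard error and number of beads and a detection p-value against negative controls for each probe and array. The submitters' processing notes name lumi and limma, with no version. Per the file headers, neither normalization nor background subtraction had been applied to the intensities. The intensity table held 3 array columns that belong to no sample, and they were left out.

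Here intensities were background corrected with limma's nec (normexp on 936 negative controls, offset 16), quantile normalized over the 25 colon arrays, or over 27 where T cells enter, and put on the log2 scale. A probe was above background at a detection p-value under 0.05. A probe was tested where the number of arrays with it above background reached that of the smaller group, in a single lmFit over the 6 colon groups, with eBayes and Benjamini-Hochberg adjustment within each comparison (R 4.3.3, limma 3.58.1, data.table version 1.17.8). The study's methods give an adjusted p under 0.01, while its results for the colon monocytes, macrophages and cDC1 state a P under 0.05. Here 0.05 was used, with 0.01 as an alternative. Group differences in cell type average the genotypes, and the fit was tested on simulated data. The number of arrays limits the precision, and replicates are as labelled, each from 1 to 5 mice, where the study's methods give a wider range. Shares over all genes count a gene symbol as called where 1 of its probes was.

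The members and all gene lists were chosen with earlier results of these data known. Named are the 10 genes by their brightest probe, list genes called in a comparison, a few set markers and receptors, and the 3 probes most like each gene. Array gene names were matched by symbol, or through RefSeq accessions (27655 of 36692 probes with an accession matched). Promoter sequences are from RefSeq on GRCm38.p6. Alternatives were other thresholds, detection filters, background corrections and normalizations, array weights, the brightest probe only, 1 genotype or cell type alone, column sets as a block, label numbers that differ by 10 as a random block, and each array left out.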

Additional observations from a re-analysis of the deposited data

Results flagged for a closer look

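A sample apart from its group was looked for in 40 groups of 5 arrays by the gap to the nearest array, and 4 passed, where chance passes about 1 in 20 groups. All 4 were of genes near background. *Ngp* stood at 4.40 on WT macrophage array 12, where it was not above background, and at 4.87 on Mbd2KO macrophage array 16, where it was. *Mpo* stood at 4.75 on Mbd2KO macrophage array 18, above background. *Ctsg* stood at 4.34 on Mbd2KO monocyte array 6, below the others and not above background.

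By the interaction term, 4 of 47 other neutrophil genes passed between CD11bnegDC and macrophages (*Cebpb*, *Clec4d*, *Ifitm6* and *Ltb4r1*), where 10.9% of all genes did. Between CD11bnegDC and monocytes 3 of 52 passed (*Cebpb*, *Clec4d* and *Wfdc17*), where 1.46% did. The genotype difference (Mbd2KO minus WT) was also not the same in 2 cell types for the 2 genes flagged, *Lrg1* and *Cebpe*. For *Lrg1* it was 1.63 higher on the log2 scale in CD11bnegDC than in macrophages, where 10.9% of all genes passed, and column set and genotype cannot be told apart in CD11bnegDC. For *Cebpe*, by its brightest probe, it stood at -1.32 in macrophages relative to monocytes. Another *Cebpe* probe passed between genotypes in neither cell type. With the column sets as a block the *Cebpe* value was -1.37 (adjusted p 0.0234 by limma). It did not pass without array 2, 3, 10 or 14, where the adjusted p was at most 0.0658.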

How the results depend on the processing

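Of the differences of single genes, 603 of 647 kept their sign and their side of the threshold under another setting, and 624 of 651 did when 1 array was left out. The cause of the changes was not tested.

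Members called in CD11bnegDC against macrophages (3) numbered 5 with no minimum fold or with median scaling and 1 in Mbd2KO arrays only or without background correction, and 2 to 4 with 1 array left out. Members called between genotypes in CD11bnegDC (2) numbered 0 at an adjusted p under 0.01, without background correction, with median scaling, with array weights or with that cell type alone, and 1 without a filter or at offset 50. With 1 array left out they numbered 1 to 2, with *Lrg1* alone without array 23 or 27, *Ltf* alone without 28, *Camp* alone without 26, and *Lcn2* and *Lrg1* without 30. In macrophages (0) they numbered 0 to 1, *S100a8* without array 15 or 17. The count whose genotype difference differed between cell types (1) was 0 at an adjusted p under 0.01, with median scaling, array weights or the cell types alone, and 0 to 2 with 1 array left out, 0 without array 28, *Camp* in place of *Lrg1* without array 26, and 2, *Mpo* and *Lrg1*, without array 30.

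Other neutrophil genes called numbered 45 in CD11bnegDC against monocytes (29) and 35 in macrophages against monocytes (19) with no minimum fold. Between genotypes in CD11bnegDC (3) they numbered 6 with no minimum fold, 1 at 0.01, without a filter, without background correction or at offset 50, 0 with array weights or alone, and 0 to 7 with 1 array left out. In macrophages (1) they numbered 6 with no minimum fold, 2 with median scaling, 0 at 0.01, without background correction, at offset 50, with array weights or alone, and 0 to 2 with 1 array left out. In monocytes (3) they numbered 6 with no minimum fold, 0 without background correction, 1 with median scaling and 5 with array weights, and 2 to 4 with 1 array left out.

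Signs turned for values that were not called. *Camp* in CD11bnegDC against monocytes was -0.055 in Mbd2KO arrays only and -0.16 to 0.81 with 1 array left out, negative without array 23, and its genotype difference in CD11bnegDC was -1.64 (called) without array 26 and 0.30 without array 23. *Ltf* in CD11bnegDC against macrophages was -0.19 in WT arrays only and -0.11 with median scaling. *Mpo* between genotypes in monocytes was -0.056 with median scaling, and *Retnlg* in macrophages against monocytes was -0.40 in Mbd2KO arrays only. Median scaling moved the median of all probes to -0.26 between genotypes in monocytes, -0.37 between genotypes in CD11bnegDC and -0.28 in CD11bnegDC against either other cell type.

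No paired analysis was possible because the array numbers in the labels are unique to each array and the groups compared share none. Arrays whose numbers differ by 10, which nothing in the labels pairs, were instead linked by a random block, with a correlation of 0.0558, and this changed 0 of 50 differences of single genes. Column sets as a block were fitted for genotype in monocytes and macrophages and for the difference of these, where *S100a8* in macrophages was 1.18 (adjusted p 0.0635 by limma). Signal over background limits *Camp*, *Ngp*, *Mpo* and *Ctsg* in the colon.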
